A study of Mus musculus with 4 samples.

Results

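The genes described here encode 9 transcription factors that set and hold the identity of hepatocytes: Hnf4a, Nr5a2, Cebpa, Cebpb, Foxa1, Foxa2, Foxa3, Onecut1 and Prox1. They were chosen by name, not by their values. They are 9 of the 21755 protein-coding genes of the GENCODE vM21 annotation on chromosomes 1 to 19 and X. For each gene, the counts of all peaks that touch the gene body or the 2 kb upstream of it (the gene window) were summed over the nuclei of a library and expressed per 1000000 counts in the peaks of that library (CPM). Peaks within 1000 bp of an annotated start site of a protein-coding transcript were also summed alone (the promoter). All 9 genes passed the filter on low counts.

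The libraries were scATAC-Seq of hepatocyte nuclei, an assay in which Tn5 transposase cuts open DNA and a droplet barcode names the nucleus. Each of the 4 libraries came from liver hepatocytes of C57BL/6J male mice labelled as 10-12 weeks old, with no genetic change or drug in any group. One was from undamaged liver (PHx 0 h) and the others were taken 48, 72 and 96 h after PHx (partial hepatectomy, an operation that takes out a large piece of the liver and after which the rest regrows). With 1 library per time point there was no replicate, so time cannot be told apart from library, no test across time points was possible, and every interval given below covers counting error only. The 0 and 48 h libraries were each made from 1 hepatocyte preparation, and the sources used here do not say whether animals were pooled at 72 and 96 h. No sham-operated library was analysed here.

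Hepatocyte identity rests on a small network of transcription factors that bind the regulatory DNA of liver genes and of one another. HNF4A and NR5A2 are nuclear receptors, C/EBP alpha and C/EBP beta are basic leucine zipper proteins, FOXA proteins are forkhead factors that can bind closed chromatin and open it, and ONECUT1 and PROX1 are homeobox proteins needed as the liver forms. C/EBP alpha is known for holding back division of hepatocytes and for driving metabolic genes, and C/EBP beta is known as its counterpart in the acute phase and in regrowth.

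Depth fell with time point. The libraries held between 3224 and 4256 nuclei with at least 1000 counts, and median counts per nucleus went from 26005 at 0 h to 11629, 4841 and 3681.5 at 48, 72 and 96 h. Library pairs shared 27 to 60 barcodes, at most 1.51% of the smaller library. Peaks had been called in each library on its own and covered 153.6, 179.0, 141.2 and 60.9 Mb, so a level can move because more or less of a locus was called as peak, and called lengths are given with the levels. The preparation label was met: the 12 hepatocyte markers summed to 5535, 6711, 4668 and 7197 CPM at 0, 48, 72 and 96 h, with none at 0. The summed levels of 10 endothelial markers were 217 to 339 CPM, of 10 Kupffer and other myeloid markers 110 to 240 CPM and of 8 cholangiocyte markers 68.4 to 90.8 CPM. The 10 stellate markers summed to 76.1, 123, 164 and 134 CPM at 0, 48, 72 and 96 h. The 8 lymphocyte markers summed to 2.62 to 51.2 CPM, of which Cd79a alone held 44.5 CPM at 48 h and was listed at 0 in the other libraries. Defining markers listed at 0 in some libraries were Cdh5 among the endothelial genes, Clec4f, Adgre1 and Marco among the myeloid genes, Dcn and Des among the stellate genes, and Krt7 and Krt19 among the cholangiocyte genes. Vsig4, a myeloid marker, and Lum, a stellate marker, were listed at 0 in all 4 libraries. In libraries of mixed nuclei, a change in the number of nuclei of a type and a change in accessibility per nucleus cannot be told apart from these sums. The part of these other cell types in the differences below was not tested. Only nuclei low in hepatocyte markers were left out, and these are not a cell type.

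The promoters of these genes were open in nearly every library. RefSeq start sites gave 14 promoters for the 9 genes, and the 250 bases upstream of 13 of them lay in a peak of every library. The exception was the second Nr5a2 promoter, with a peak in 2 libraries. The sequences shown are those upstream of the first start site of the genes that the results turn on, and of both Hnf4a promoters, since RefSeq gives Hnf4a 2 promoters. They are RefSeq sequence of GRCm38.p6, the assembly of the mm10 build, written 5' to 3' on the strand of the gene and ending at the base before the start site. Capitals mark matches, on either strand, to motif letters that the factors themselves are known to bind.

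Hnf4a P2: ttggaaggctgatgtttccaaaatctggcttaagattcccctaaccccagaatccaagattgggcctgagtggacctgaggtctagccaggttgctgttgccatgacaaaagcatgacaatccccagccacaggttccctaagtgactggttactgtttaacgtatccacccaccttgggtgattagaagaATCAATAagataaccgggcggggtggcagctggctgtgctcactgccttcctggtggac
Hnf4a P1: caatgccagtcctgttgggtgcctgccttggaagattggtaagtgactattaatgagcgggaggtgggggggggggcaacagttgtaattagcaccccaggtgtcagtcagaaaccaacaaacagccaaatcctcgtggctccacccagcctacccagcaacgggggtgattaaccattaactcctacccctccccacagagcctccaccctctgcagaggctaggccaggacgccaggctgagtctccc
Nr5a2: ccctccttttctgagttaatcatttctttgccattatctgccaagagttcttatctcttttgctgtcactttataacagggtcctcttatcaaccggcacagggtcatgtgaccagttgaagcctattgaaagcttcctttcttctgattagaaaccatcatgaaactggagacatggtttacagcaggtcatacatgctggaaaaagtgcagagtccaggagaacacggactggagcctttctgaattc
Cebpa: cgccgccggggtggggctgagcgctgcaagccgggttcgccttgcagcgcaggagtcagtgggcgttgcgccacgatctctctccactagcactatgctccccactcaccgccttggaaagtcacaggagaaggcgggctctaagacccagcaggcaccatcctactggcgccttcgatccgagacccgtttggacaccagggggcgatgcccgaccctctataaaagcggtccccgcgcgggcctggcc
Foxa1: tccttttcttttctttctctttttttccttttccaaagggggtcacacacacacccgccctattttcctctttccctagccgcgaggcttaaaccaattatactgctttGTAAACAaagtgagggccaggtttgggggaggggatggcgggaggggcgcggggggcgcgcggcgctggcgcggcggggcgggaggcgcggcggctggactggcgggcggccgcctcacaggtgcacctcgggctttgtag
Foxa2: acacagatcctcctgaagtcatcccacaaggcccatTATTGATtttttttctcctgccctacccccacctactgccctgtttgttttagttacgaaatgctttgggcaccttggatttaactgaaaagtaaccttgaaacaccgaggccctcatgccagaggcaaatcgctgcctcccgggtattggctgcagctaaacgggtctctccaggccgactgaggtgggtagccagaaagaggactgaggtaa
Onecut1: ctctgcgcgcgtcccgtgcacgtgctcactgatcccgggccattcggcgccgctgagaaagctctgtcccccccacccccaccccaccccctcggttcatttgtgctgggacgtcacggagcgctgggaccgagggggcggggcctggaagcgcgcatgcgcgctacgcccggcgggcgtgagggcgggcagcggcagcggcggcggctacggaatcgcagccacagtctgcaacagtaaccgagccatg

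Hnf4a P2 is chr2:163506607-163506856 on the plus strand and Hnf4a P1 is chr2:163546905-163547154 on the plus strand. Nr5a2 is chr1:136960449-136960698 on the minus strand, Cebpa is chr7:35119043-35119292 on the plus strand and Foxa1 is chr12:57546112-57546361 on the minus strand. Foxa2 is chr2:148046970-148047219 on the minus strand and Onecut1 is chr9:74861671-74861920 on the plus strand. Of the 14 promoters, 2 held the ONECUT1 letters ATCAATA, Hnf4a P2 at 59 bases and Foxa2, on the other strand, at 214 bases upstream of the start site, a match found in 1.86% of all 32851 promoters of the same length. Foxa1 held the FOXA letters TGTTTAC at 141 bases, also on the other strand, and 3.17% of all promoters held them. The letters TTGCNNCAA (C/EBP), CAAAGTCCA (HNF4A) and CAAGGTCA (NR5A2) matched none of the 14, and 1.74%, 0.384% and 1.33% of all promoters. No 2 matches overlapped. A match of letters is a description of the sequence and not a bound site. The 14 promoters had a median GC content of 59.8%, against 52.4% over all promoters, from 43.2% at Nr5a2 to 81.6% at Cebpb.

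The loci held more counts than most genes in every library, and their peaks were very long. Over all genes passing the filter the median gene window held 31.5 CPM at 0 h and the median over the 9 factors was 216 CPM. The 9 factors lay at or above the 85.2 percentile of CPM in all 4 libraries, with Foxa1 at 48 h the lowest of them. Called peaks at their promoters covered a median of 15516, 23377, 9055 and 8136 bp at 0, 48, 72 and 96 h, against 2291, 2510, 2046 and 1282 bp over all promoters. The longest single peak at a promoter of the 9, 36724 bp, ran over Foxa2 at 48 h. Per covered kb the 9 held at 0 h 4.76 (Prox1) to 17.2 (Cebpa) CPM per kb against 6.51 over all peaks, and 2, 2, 2 and 5 of the 9 were below the value of all peaks at 0, 48, 72 and 96 h.

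**Figure D1:**
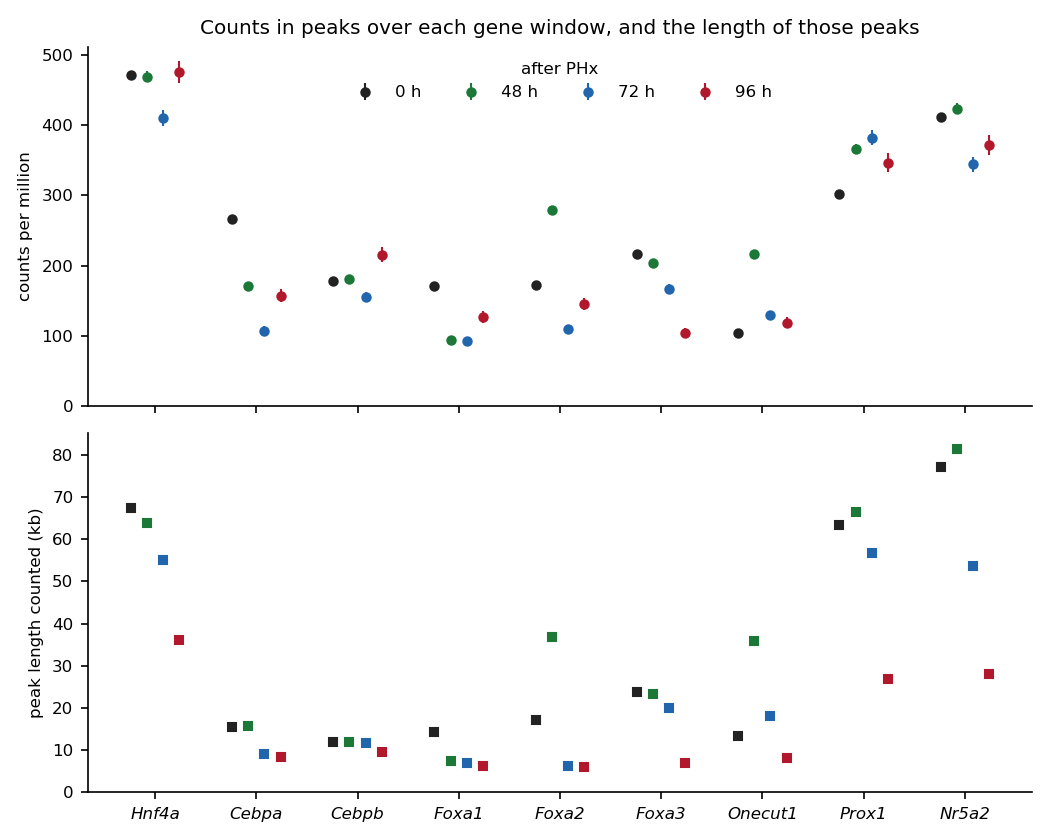
CPM in peaks over each gene window (upper plot, points with exact 95% Poisson intervals) and the summed length of the peaks counted (lower plot, kb), for the 4 libraries in order of time after PHx. Hnf4a stayed between 410 and 475 CPM while its peak length went from 67.4 to 36.1 kb, whereas the level and the peak length of Foxa2 both peaked at 48 h.

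Taken as deposited, 4 of the 9 gene windows differed at least 1.5-fold from undamaged liver at 48 h, 3 at 72 h and 2 at 96 h. Foxa2 and Onecut1 were higher at 48 h and Cebpa and Foxa1 were lower. At 72 h Cebpa, Foxa1 and Foxa2 were lower, and at 96 h Cebpa and Foxa3 were lower. None was 1.5-fold higher at 72 or 96 h. Such differences were common: of 16664 genes, 17.2% were higher and 7.24% lower by this rule at 48 h, 23.5% and 16.0% at 72 h, and 19.6% and 19.8% at 96 h. The median log2 ratio of the 9 factors was 0.02, -0.26 and -0.15 at 48, 72 and 96 h, beside -0.01, 0.02 and 0.07 over all genes. At promoters, Foxa2, Onecut1 and Prox1 were higher and Cebpa and Foxa1 lower at 48 h, 5 factors were lower at 72 h (Hnf4a, Cebpa, Foxa1, Foxa2 and Foxa3) and 3 at 96 h (Hnf4a, Cebpa and Foxa3). Over 14827 promoters, 15.9% were higher and 9.46% lower at 48 h, 19.9% and 18.8% at 72 h, and 23.3% and 18.1% at 96 h.

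Many of these differences moved with the extent of the called peaks. To count all peaks of the same stretch in every library, the peaks of the 4 libraries were merged into regions, and all peaks of a region that a gene window touched were summed, a way of counting chosen after the values had been seen. Cuts outside called peaks are still not in these sums, and called peaks covered from 24.4% (Onecut1 at 96 h) to 100% (Cebpb at 48 h and Foxa3 at 0 h) of the regions. Only 2 factors then passed 1.5-fold at any time point: Cebpa was lower at 48 and 72 h, and Onecut1 was higher at 48 h. None passed at 96 h. Of 16677 genes counted in this way, 15.8% were higher and 6.01% lower at 48 h, 23.4% and 13.1% at 72 h, and 20% and 14.9% at 96 h. The median log2 ratio of the 9 factors over these regions was 0.02, -0.20 and 0.07, beside -0.02, 0.03 and 0.10 over all genes.

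**Figure D2:**
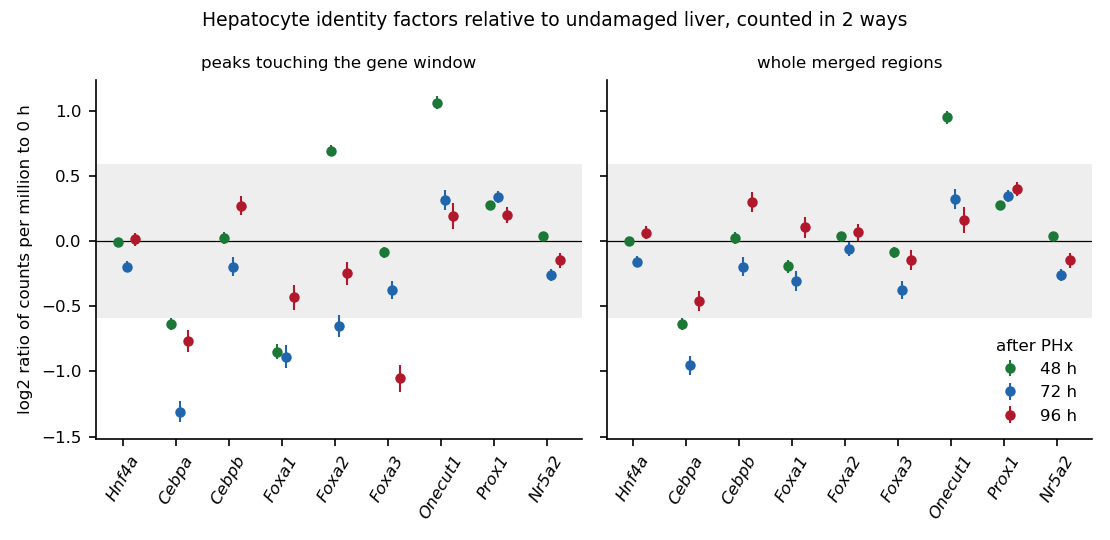
Log2 ratio of CPM to undamaged liver at 48, 72 and 96 h after PHx, with exact 95% intervals for counting error, from the peaks that touch the gene window (left) and from the whole merged regions (right). The grey band marks less than 1.5-fold. In the right plot Cebpa at 48 and 72 h and Onecut1 at 48 h lie outside the band.

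Hnf4a, the nuclear receptor at the centre of the network, lies at chr2:163506808-163572910 on the plus strand. Its gene window held 471, 469, 410 and 475 CPM at 0, 48, 72 and 96 h. The values at 0, 48 and 96 h could not be separated within counting error, and that of 72 h was the lowest, with a log2 ratio of -0.20 (95% interval -0.24 to -0.16). With counts capped at 1 per peak and nucleus, in nuclei of unequal depth, the gene window ratios were 0.52, 1.01 and 1.36 at 48, 72 and 96 h. The peaks counted there shortened from 67422 bp at 0 h to 63911, 55040 and 36071 bp, and broke up from 3 peaks into 5, 10 and 20. Hnf4a is read from P2, active in the fetal liver, and from P1, further downstream, the main promoter of adult hepatocytes.

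The peak over P1 was one stretch at 0 and 48 h, of 30808 and 30899 bp, and held 245 and 269 CPM. Relative to other peaks of nearly equal length in those libraries it was higher at 48 h by a log2 ratio of 0.25 (95% interval 0.22 to 0.29), which placed it at the 64.3 percentile of 55694 such peaks. At 72 and 96 h the peak over P1 was cut to 7154 and 1507 bp and held 51.2 and 32.5 CPM. Over the whole merged region around P1, 30899 bp that run to the end of the gene, levels were 245, 269, 229 and 245 CPM, so the lower level of the promoter peak was not seen over the region.

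At P2 the peak shortened from 19377 bp to 7164, 3800 and 3555 bp and held 80.6, 41.5, 36.0 and 61.8 CPM. From 72 to 96 h, where its length was nearly equal, it was higher by a log2 ratio of 0.26 relative to such peaks (95% interval 0.07 to 0.45, the 81.3 percentile of 11199). The merged region around P2 held 80.6, 80.2, 90.0 and 132 CPM, the highest level at 96 h, while its called length fell from 19377 to 10576 bp. The region of 17261 bp between the 2 promoters held 145, 122, 102 and 115 CPM over 17237, 16568, 14230 and 7712 bp of peaks. Hnf4aos, an antisense transcript, has its own start site within these peaks, and peaks that touch it held 42.7% to 48.4% of the Hnf4a counts.

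Nr5a2 (LRH-1), a nuclear receptor of bile acid and cholesterol genes, lies at chr1:136842571-136960448 on the minus strand. Its gene window held 411, 423, 344 and 371 CPM over 77106, 81337, 53653 and 28028 bp of peaks. The 4 levels stayed within a log2 ratio of -0.26 to 0.04 of undamaged liver. It was the most divided of the 9 in every library, with 24 to 34 peaks per library that merged into 32 regions, of which 13 had a peak in every library and 5 in 1 library alone.

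The GENCODE start sites of protein-coding Nr5a2 transcripts fall into 3 promoters, the first 2 of which are the RefSeq promoters counted above. The first, over the start sites at 136960448 and 136960380, held 49.4, 39.1, 34.0 and 47.4 CPM over 4184, 4804, 3861 and 3591 bp. The third, further into the gene, held 52.1, 43.1, 40.9 and 62.8 CPM over 4962, 4896, 4514 and 4417 bp. The second held 16.0, 19.97, 16.8 and 4.35 CPM over 3316, 3672, 2827 and 570 bp. The merged region of the second promoter held 13.2 CPM at 96 h, a log2 ratio of -0.28, so most of the low value at 96 h lay in which peaks came within 1000 bp of the start site.

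Both strong promoters were thus lower at 48 and 72 h than at 0 h at nearly equal length. Relative to other peaks of nearly equal length, the first was lower at 72 h by a log2 ratio of -0.66 (95% interval -0.81 to -0.51, the 3.36 percentile) and the third by -0.46 (95% interval -0.60 to -0.33, the 8.09 percentile). At 96 h these ratios were -0.90 (the 0.971 percentile) and -0.57 (the 4.87 percentile) relative to 6794 peaks whose own median was 0.42, while the plain CPM of the third was higher than at 0 h. The 2 other regions with the highest mean levels were both intronic: one of 13825 bp held 88.9, 86.7, 78.2 and 84.2 CPM over 13825, 12950, 12669 and 6093 bp of peaks, and one of 7375 bp held 44.6, 49.3, 40.2 and 44.7 CPM over 5646, 7317, 5099 and 3282 bp. Among regions with a mean of at least 2 CPM the one furthest above undamaged liver at 48 h was a 3065 bp region over an exon, with 4.85 CPM at 0 h and 7.92 CPM at 48 h, and the one furthest below was the first promoter.

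Cebpa, which encodes C/EBP alpha, was lower in counts than undamaged liver in all 3 later libraries. It lies at chr7:35119293-35121928 on the plus strand, and 1 peak covered the whole gene in every library. That peak held 267 CPM at 0 h, 171 at 48 h, 108 at 72 h and 157 at 96 h. It measured 15516 bp in the 0 h library and 15738 bp in the 48 h library, so the called length was nearly equal while the level was not. The log2 ratio was -0.64 (95% interval -0.68 to -0.59). Relative to peaks of nearly equal length it was -0.52 (95% interval -0.56 to -0.47), and 3.03% of 55694 such peaks had a lower ratio.

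At 72 and 96 h the Cebpa peak was shorter, 9055 and 8499 bp, because a stretch downstream of the gene was no longer called. With the downstream peak added back, the merged region of 15753 bp held 138 and 194 CPM, which gave log2 ratios of -0.95 (95% interval -1.03 to -0.88) and -0.46 (95% interval -0.54 to -0.38). At 72 h 3.62% of genes had a lower ratio over their merged regions. From 72 to 96 h, at nearly equal length, the level went from 108 to 157 CPM, which relative to such peaks was a log2 ratio of 0.03 (95% interval -0.09 to 0.14). These levels were below undamaged liver at all 3 time points, lowest at 72 h, and the merged region at 96 h was under 1.5-fold from it. The 48 h call is near the 1.5-fold limit and was lost in peaks of nearly equal length and with scaling to regions shared by all libraries (-0.56). With counts weighted by the share of the peak inside the gene window the ratio was -0.53 at 72 h, under 1.5-fold, and 0.10 at 96 h. Leaving out nuclei low in hepatocyte markers gave log2 ratios of -0.64, -1.31 and -0.77 over the gene window at 48, 72 and 96 h. Those nuclei held 228 of 36409, 106 of 10616, 84 of 2660 and 46 of 2341 Cebpa counts at 0, 48, 72 and 96 h. Leaving them out could therefore move the ratios only a little. With counts capped at 1 per peak and nucleus the direction turned, to 0.33, 0.32 and 0.81. Nuclei were not of equal depth in that count, and the part of depth in it was not tested. The antisense gene Gm45091 starts within the same peak.

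Cebpb, which encodes C/EBP beta, was below undamaged liver in plain CPM at 72 h alone, and by less than Cebpa. It is a single-exon gene at chr2:167688915-167690418 on the plus strand, within 1 peak of 11936, 11955, 11686 and 9691 bp. The peak held 178, 181, 155 and 215 CPM. At 48 h the log2 ratio was 0.02 (95% interval -0.02 to 0.07), in the middle of peaks of nearly equal length (the 52.5 percentile). At 72 h the plain log2 ratio was -0.20 (95% interval -0.27 to -0.13) and at 96 h 0.27, below 1.5-fold in each case. Relative to peaks of nearly equal length the 72 h ratio was -0.31 (95% interval -0.38 to -0.24, the 14.3 percentile). Per covered kb and relative to all peaks the 96 h ratio was -0.76, which turned its direction and passed 1.5-fold. The same peak covers the start sites of Tmem189 and of the lincRNA A530013C23Rik, so its counts cannot be given to Cebpb alone.

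**Figure D3:**
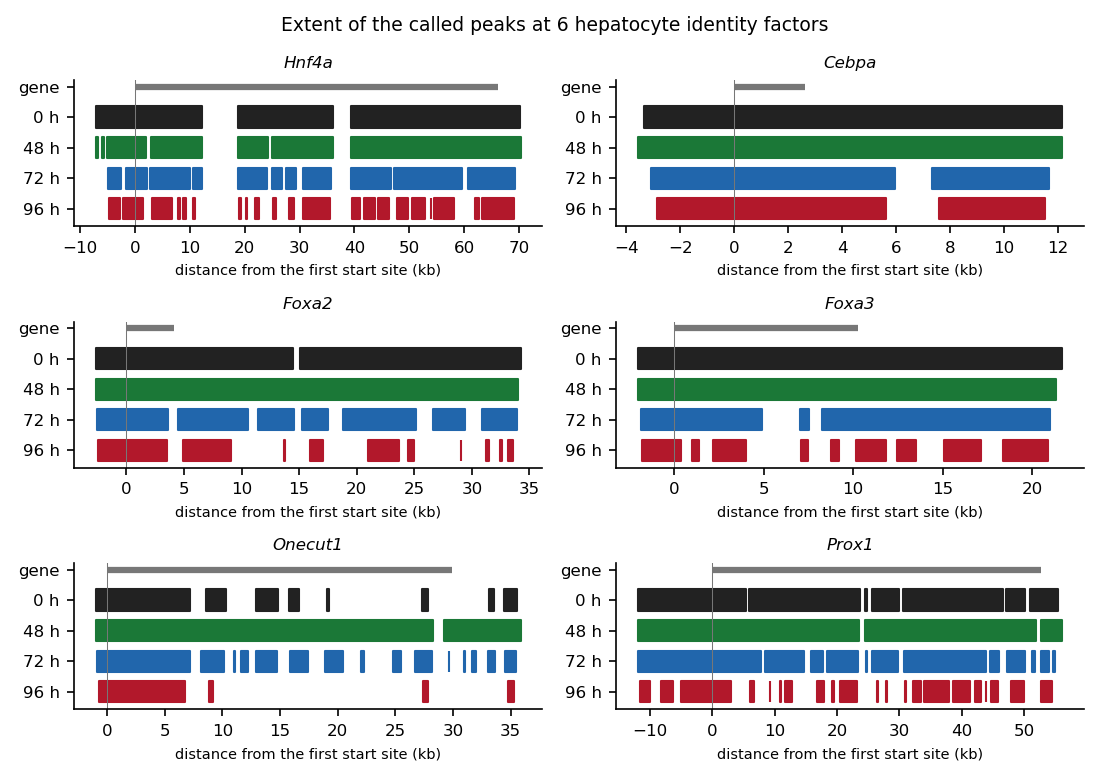
Extent of the called peaks in the merged regions at 6 of the genes, by distance in kb from the first start site, with 1 row per library and the gene drawn in grey. Cebpa was covered by a single peak of 15516 and 15738 bp at 0 and 48 h, Foxa2 by a peak of 17142 bp at 0 h and of 36724 bp at 48 h, and at Onecut1 the called stretch was longest at 48 h.

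The 3 Foxa genes encode forkhead factors with overlapping roles at liver enhancers, and each lay in a peak whose called extent changed. Foxa2 (chr2:148042877-148046969, minus strand) held 173, 279, 110 and 145 CPM over single peaks of 17142, 36724, 6239 and 5995 bp. The 48 h peak joined the Foxa2 promoter with a downstream stretch that was a separate peak at 0 h. The lincRNA 9030622O22Rik, on the same strand, has its start site within the Foxa2 promoter peak at 0 and 48 h. Over the merged region of 36909 bp the levels were 272, 279, 261 and 285 CPM, with log2 ratios of 0.03, -0.06 and 0.07. With counts weighted by the share of the peak inside the gene window they were -0.41, 0.70 and 1.14. From 72 to 96 h, at nearly equal length, the promoter peak had a log2 ratio of -0.11 (95% interval -0.23 to 0.003) relative to such peaks.

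Foxa1 (chr12:57540628-57546916, minus strand) held 171, 94.8, 92.2 and 126 CPM over 14383, 7417, 7062 and 6247 bp. Its promoter peak ran past the end of the gene at 0 h, 13311 bp in all, and ended within it at 48 h, 6709 bp. The merged regions held 171, 149, 138 and 184 CPM, with log2 ratios of -0.19, -0.31 and 0.11. Between 48 and 72 h the promoter peak kept its length and held 92.6 and 90.8 CPM, a log2 ratio of -0.21 (95% interval -0.31 to -0.11) relative to such peaks. The 1273 bp region upstream of Foxa1 held 3.11, 2.21, 1.38 and 1.41 CPM.

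Foxa3 (chr7:19013284-19023538, minus strand) held 216, 203, 166 and 104 CPM over 23741, 23377, 19975 and 6878 bp. At 0 and 48 h 1 peak of nearly equal length spanned the locus, and its log2 ratio relative to such peaks was 0.04 (95% interval -0.01 to 0.08). The promoter peak alone went to 6764 and 2157 bp at 72 and 96 h, with 54.6 and 60.8 CPM. Over the merged region of 23741 bp Foxa3 held 216, 203, 166 and 195 CPM, with log2 ratios of -0.09, -0.38 and -0.14. This region also holds the start sites of Irf2bp1 and Sympk, so at 0 and 48 h all Foxa3 counts came from a peak shared by 3 promoters.

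Onecut1 (HNF6), a homeobox factor known to act on Hnf4a and Foxa2 in the developing liver, had at 48 h the largest ratio to undamaged liver of any factor and time point. At 72 h Prox1, and at 96 h Cebpb and Prox1, were further above undamaged liver than Onecut1. It lies at chr9:74861921-74891781 on the plus strand. Its gene window held 104, 216, 129 and 119 CPM over 13371, 35878, 18067 and 8239 bp of peaks, so the 48 h library stood apart in level and in length. At 48 h peaks covered 93.8% of the gene window, against 42.0% at 0 h, 56.7% at 72 h and 25.9% at 96 h. Over the merged regions of 35893 bp the log2 ratio at 48 h was 0.95 (95% interval 0.90 to 0.99), higher than that of 91.5% of genes. Counts outside peaks are not in the deposited tables, so the uncalled stretch at 0 h adds nothing to its level, and per covered kb the 48 h level was 6.03 CPM against 7.76 CPM at 0 h, where all peaks together had 5.59 and 6.51 CPM per kb.

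The Onecut1 promoter peak itself could be compared where its length was nearly equal. It was 8198 bp at 0 h, 8053 bp at 72 h and 7456 bp at 96 h, and held 87.0, 89.4 and 111 CPM. Relative to such peaks the log2 ratio was -0.08 (95% interval -0.17 to 0.02) at 72 h and -0.48 (95% interval -0.59 to -0.38) at 96 h. The latter was relative to 6794 peaks whose own median was 0.42, while the plain log2 ratio at 96 h was 0.36. At 48 h the promoter lay in a peak of 29255 bp with 184 CPM that ran over most of the gene, so no such comparison was possible. The downstream region of 6623 bp over the last exon held 8.49, 32.4, 11.6 and 7.10 CPM and had the largest log2 ratio at 48 h of the Onecut1 regions, 1.93, over a called length that went from 1522 to 6623 bp. The lincRNA Gm20649 overlaps the gene on the same strand.

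Prox1, a homeobox factor that holds hepatocyte over cholangiocyte fate, lies at chr1:190118035-190170714 on the minus strand. Its gene window held 302, 366, 382 and 346 CPM over 63357, 66448, 56662 and 26894 bp. All 3 later libraries were above undamaged liver, with log2 ratios of 0.28 (95% interval 0.24 to 0.31), 0.34 (0.29 to 0.38) and 0.20 (0.14 to 0.26), none of them 1.5-fold. Over the merged regions these ratios were 0.28, 0.34 and 0.40. With counts capped at 1 per peak and nucleus the gene window ratios were -0.13, 0.66 and 0.74, so the direction at 48 h turned. The promoter region of 35678 bp held 182, 213, 242 and 227 CPM over 35073, 35508, 32914 and 17751 bp of peaks. The other region, over the later exons, held 120, 153, 141 and 171 CPM over 28284, 30940, 24092 and 14409 bp. Of 2 peaks within the gene of nearly equal length at 0 and 72 h, one had a log2 ratio of 0.44 (95% interval 0.21 to 0.67) relative to such peaks and the other -0.08 (95% interval -0.30 to 0.14). The antisense genes Prox1os and Gm28172 start in the promoter peak.

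The 9 factors differed in how far they were lower in nuclei with few counts at hepatocyte markers. Nuclei whose share of counts at the 12 hepatocyte markers was under 0.25 of the median of their library were set apart. There were 277, 240, 347 and 159 such nuclei at 0, 48, 72 and 96 h, or 6.97%, 6.17%, 8.15% and 4.93%. They are a range cut from a score, not a cell type, and 38, 60, 120 and 107 nuclei lay near the limit. In the 0 h library, where depth was greatest, the endothelial markers summed to 516 CPM in these nuclei against 258 CPM in the others, and the myeloid markers to 375 CPM against 169 CPM. Both sums were higher in the marker-low nuclei at 48 and 72 h too and lower at 96 h, with 177 against 218 CPM for endothelial and 86.8 against 111 CPM for myeloid markers. Stellate markers were higher in them at 0 h alone.

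At 0 h Foxa1 held 21.9 CPM in marker-low nuclei and 172 CPM in the other nuclei, a log2 ratio of -2.97 (95% interval -3.81 to -2.25) and the largest gap of the 9. Onecut1 (-2.46), Prox1 (-2.34), Nr5a2 (-1.93), Hnf4a (-1.70) and Foxa2 (-1.63) were also far lower in marker-low nuclei. Cebpa held 167 CPM against 268 CPM, a log2 ratio of -0.68 (95% interval -0.96 to -0.42), and Foxa3 had a log2 ratio of -0.46 (95% interval -0.74 to -0.18). Cebpb held 191 CPM against 178 CPM, a log2 ratio of 0.11 (95% interval -0.15 to 0.35), so no difference was seen within counting error. Cebpb is known to be active in many cell types. The peaks of Cebpb and Foxa3 hold start sites of other genes, as do peaks of Hnf4a, Cebpa, Foxa2 and Prox1 at 0 h. The part of either in these ratios was not tested.

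At 48 h the ratios ran from Onecut1 at -1.57, Foxa1 at -1.47 and Foxa2 at -1.41 over Nr5a2 (-1.21), Prox1 (-1.16), Hnf4a (-0.96) and Foxa3 (-0.89) to Cebpa at -0.40 and Cebpb at 0.42 (95% interval 0.12 to 0.71). At 72 and 96 h the ratios of the 6 factors furthest below 0 at 0 h were nearer to 0, and at 96 h only the interval of Hnf4a (-0.55, 95% interval -1.01 to -0.13) lay wholly below 0. In nuclei of at least 3000 counts, of which 15 were marker-low at 96 h, that interval ran from -2.35 to 0.0082, so this call was lost. Foxa3 at 96 h was at -0.53 and Cebpb at 0.47, both further from 0 than at 0 h. Nuclei of those libraries were shallow, with a median of 1972 and 1460 counts per marker-low nucleus, and the limit there rested on few marker counts. Cebpb was the only factor with a ratio above 0 in all 4 libraries.

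**Figure D4:**
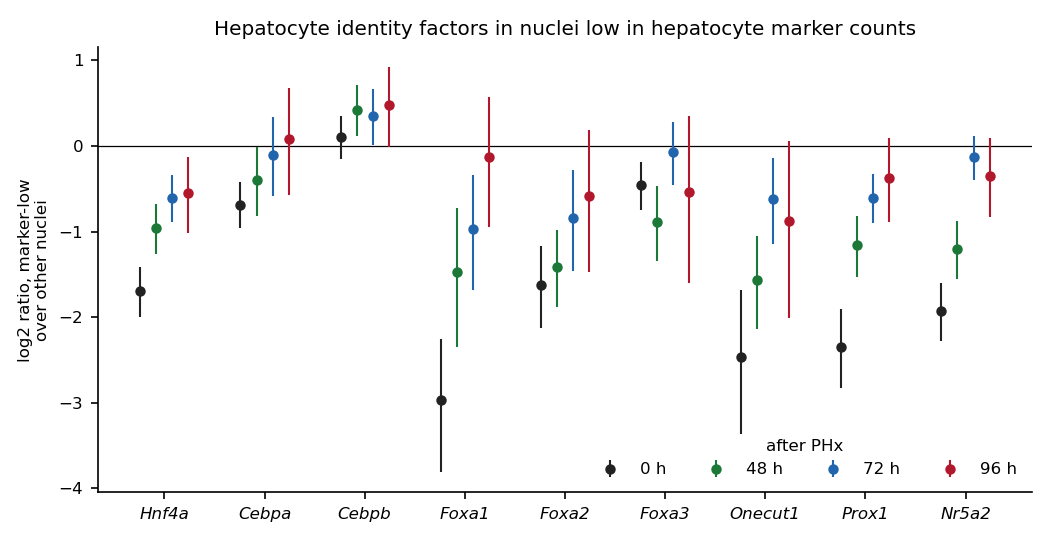
Log2 ratio of CPM in hepatocyte marker-low nuclei to the other nuclei of the same library, for each gene and library, with exact 95% intervals for counting error. At 0 h the values run from -2.97 at Foxa1 to 0.11 at Cebpb.

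The share of nuclei with a count at a locus was compared after each nucleus was thinned to 1000 counts. At 0 h 36.8% of the nuclei outside the marker-low set had a count at Hnf4a (exact 95% binomial interval 35.2% to 38.3%), against 11.2% of the marker-low nuclei. Before thinning these shares were 90.8% and 28.2%, at median depths of 28436.5 and 3239 counts. The share at Hnf4a was 34.2%, 28.3% and 31.4% at 48, 72 and 96 h. At Cebpa the share was 22.3% at 0 h (interval 21.0% to 23.7%), 14.6% at 48 h (13.5% to 15.8%), 8.83% at 72 h (7.95% to 9.76%) and 12.2% at 96 h (11.0% to 13.4%). At equal depth such a share follows from the CPM and is not a second observation. The marker-low nuclei stood at 9.03%, 9.17%, 7.20% and 10.7% for Cebpa, and the intervals of the 2 sets of nuclei overlapped at 48, 72 and 96 h. The share in marker-low nuclei is a comparison and not a level of background. At Onecut1 the share was 10.5%, 18.5%, 10.4% and 9.36%, and in the marker-low nuclei 1.08%, 6.67%, 6.34% and 5.03%.

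Patterns over the time points were compared by the root mean square difference of the 3 log2 ratios of the gene windows, all of which share the 0 h library. The most alike by gene windows were Hnf4a and Nr5a2, with a difference of 0.10, and Hnf4a and Cebpb, with 0.15. The least alike were Cebpa and Onecut1, with 1.47. The paralogs Cebpa and Cebpb differed by 0.96, and among the Foxa genes the differences were 0.64 for Foxa1 and Foxa3, 0.67 for Foxa2 and Foxa3 and 0.91 for Foxa1 and Foxa2. Over merged regions the most alike were Hnf4a and Foxa2, with 0.059, and Foxa3 and Nr5a2, with 0.0998, and the 3 differences among the Foxa genes were 0.16, 0.23 and 0.19. Cebpa and Onecut1 were the least alike there too, with 1.23, and Cebpa and Cebpb differed by 0.73.

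The other regulators of hepatocyte genes were described as a list of 32. By the 1.5-fold rule 1 of them was higher and 6 were lower at 48 h, 1 and 11 at 72 h, and 1 and 12 at 96 h. Of all genes 17.2%, 23.5% and 19.6% were higher and 7.24%, 16.0% and 19.8% lower. Over whole merged regions 1 was higher at each time point, beside 15.8%, 23.4% and 20% of all genes. The numbers lower there were 6, 10 and 7, beside 6.01%, 13.1% and 14.9% of all genes. Their median log2 ratio over gene windows was -0.21, -0.43 and -0.46, beside -0.01, 0.02 and 0.07 over all genes. Rxra, the dimer partner of many nuclear receptors, was the one that was higher throughout, with 751, 1145, 1401 and 1394 CPM over peaks of nearly constant length (99673, 104983, 102924 and 91081 bp). Zbtb20, a repressor of fetal liver genes, was second at 48 h (log2 ratio 0.47, over peaks of 179929 bp at 0 h and 265237 bp at 48 h), and Cebpd, a C/EBP paralog, second at 72 h (0.22) and 96 h (0.58).

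Furthest below undamaged liver at 48 h in that list were Mlxipl (ChREBP, a glucose-responsive activator), with 349 CPM at 0 h and 197 at 48 h over 50335 and 41215 bp, and Klf15, a factor of amino acid catabolism, with 354 and 203 CPM over 27446 and 20531 bp. At 72 h they were Esrra, a receptor of mitochondrial genes, with 90.2 CPM at 0 h and 30.8 at 72 h, and Nr0b2 (SHP, a repressor of bile acid synthesis), with 144 and 51.8 CPM over 12676 and 5494 bp. At 96 h they were Ppara, the receptor that drives fatty acid oxidation, with 703 CPM at 0 h and 269 at 96 h over 83229 and 19046 bp, and Esrra, with 36.7 CPM over 2553 bp. The called length was shorter at each, at Esrra 10051 bp at 0 h and 3803 bp at 72 h, and the order was not kept over merged regions. There the log2 ratio of Esrra was -0.76 in place of -1.55 at 72 h and -0.45 in place of -1.30 at 96 h, the latter under 1.5-fold. The regulators furthest below over merged regions were Ppara (-1.16) and Nr0b2 (-1.10) at 72 h, while Ppara at 96 h was -0.93 and Nr0b2 -0.75.

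Among 12 genes known to be driven by these factors, 6 of which are also among the hepatocyte markers, 1 was higher and 3 were lower at 48 h, 1 and 5 at 72 h, and 3 and 3 at 96 h, beside 17.2%, 23.5% and 19.6% of all genes higher and 7.24%, 16.0% and 19.8% lower. Cyp7a1, the rate-limiting enzyme of bile acid synthesis, was furthest above undamaged liver at each time point, with 12.4, 202, 143 and 187 CPM at 0, 48, 72 and 96 h, over 3224 bp of peaks at 0 h and 18582 bp at 48 h. Over merged regions its log2 ratios were 2.43, 1.93 and 2.49. Cyp8b1, which sets the mix of bile acids, was furthest below at 48 and 96 h by gene windows, with 193 CPM at 0 h, 54.9 at 48 h and 58.0 at 96 h over 16550, 8874 and 5423 bp of peaks. Over merged regions its log2 ratios there were -1.05 and -0.87 in place of -1.81 and -1.73. G6pc, the last step of glucose output, was furthest below at 72 h, with 404 CPM at 0 h and 101 at 72 h over 20734 and 13730 bp. Over merged regions G6pc was the furthest below at all 3 time points, with log2 ratios of -1.55, -1.998 and -1.11.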

How the data were processed

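The deposited matrices hold raw counts of transposase cut sites per peak and barcode. The authors made them with Cell Ranger ATAC per the labels, which name the mm10 build, and the file headers give software version 1.1.0. Peaks were called in each library separately and carry no score. Between 87.3% and 88.6% of values were even, since both ends of a fragment in a peak add 2 counts, so intervals were computed on counts divided by 2. Barcodes with at least 1000 counts were kept as nuclei, and no doublet caller was run. The sources used here do not say whether doublets were removed before deposit. A further motif search is not reported here.

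Counts were summed per library with Python 3.11.15, numpy 2.4.6, pandas 2.3.3 and scipy 1.17.1 over GENCODE vM21 genes of chromosomes 1 to 19 and X. A gene passed the filter with a mean of at least 20 counts after scaling to the smallest library total (14935507 counts). Ratios used no pseudocount. Levels carry exact 95% Poisson intervals and log2 ratios exact 95% Clopper-Pearson intervals, both for counting error only, and were tested on simulated data. "Peaks of nearly equal length" are single peaks in both libraries of a pair with lengths within 1.25-fold, scaled to the counts in all such peaks. Named were all 9 factors, for each its promoter regions, the 2 other regions with the highest mean CPM and, at a mean of at least 2 CPM, the regions furthest above and below 0 h at 48 h, then at each time the 2 regulators and the 1 target furthest above and below. The genes, lists and rules were chosen with earlier results of these data known. Alternatives were minimum counts per nucleus, other windows, scalings and counts of peaks.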

Additional observations from a re-analysis of the deposited data

How the results depend on the processing

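With 1 library per time point, no interval here holds the spread between animals. No paired analysis was possible because the labels give no replicate numbers and each group has 1 library. Depth and called peak length both differed between libraries, and their parts in a difference cannot be told apart. Of 615 member values under alternative settings, 374 stayed within the counting interval of the reported value, 208 moved and 33 turned sign from a 1.5-fold difference. The cause of these changes was not tested.

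Other minimum counts, leaving out the deepest 5% of nuclei or the marker-low nuclei, scaling to shared regions, centring, gene bodies alone, promoters within 250 bp and no filter kept the number of factors past 1.5-fold within 1.5 times, though scaling to shared regions took Cebpa at 48 h to -0.56, under that limit. Over whole merged regions, chosen after seeing the data, it was 2, 1 and 0 at 48, 72 and 96 h for both gene windows and promoters, and the Hnf4a promoters at 96 h had a log2 ratio of 0.21. In peaks of nearly equal length it was 0, 0 and 1 for both, of 5, 4 and 2 gene windows that had such peaks. The 1 at 96 h was Nr5a2, which was lower. Of all such peaks 10.4%, 21.5% and 38.9% were higher and 1.81%, 4.81% and 4.67% lower at 48, 72 and 96 h. With 10 kb on both sides the number of factors was 3, 1 and 0 at 48, 72 and 96 h, and Foxa2 at 72 h was 0.026. The share of all genes was not worked out for that window. With counts weighted by the share of a peak inside the window, the number of factors was 2, 1 and 1. Of these, 1 was lower (Cebpa at 48 h) and the others higher, and the share of all genes was again not worked out. Log2 ratios were 0.084 and 0.044 for Foxa1 at 48 and 72 h, -0.41, 0.70 and 1.14 for Foxa2 at 48, 72 and 96 h and 0.10 for Cebpa at 96 h.

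Per covered kb the number was 0, 2 and 3 for gene windows and 0, 2 and 5 for promoters. Those at 96 h were all lower, where 12.5% of all gene windows and 22.9% of all promoters were lower. The 2 gene windows at 72 h were Foxa2, higher, and Cebpa, lower. Of all gene windows 5.07% were higher and 2.51% lower at 48 h, and 8.05% and 3.36% at 72 h. Of all promoters 8.94% were higher and 1.91% lower at 48 h, and 13.7% and 4.33% at 72 h. Gene window log2 ratios were then 0.33 and 0.017 for Foxa1 at 48 and 72 h, -0.19 and 0.69 for Foxa2 and -0.14 for Onecut1 at 48 h. Promoter ratios were 0.35 and 0.0064 for Foxa1, -0.19 and 0.69 for Foxa2, -0.53 for Onecut1 and -0.023 for Prox1 at 48 h, 0.17 for Hnf4a at 72 h and 0.30 for Foxa3 at 96 h.

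With binarised counts, which cap each peak at 1 per nucleus, the number was 2, 5 and 7 for gene windows and 3, 3 and 6 for promoters, all of them higher. Over all genes 11.2%, 17.0% and 14.2% of gene windows and 10.4%, 14.5% and 20.7% of promoters were then higher. Cebpa was then 0.33, 0.32 and 0.81 at 48, 72 and 96 h in both, Foxa2 0.48 at 72 h in both, Foxa1 0.22 at 72 h over the gene window and 0.020 and 0.29 at 48 and 72 h at the promoter, Foxa3 0.59 at 96 h over the gene window and the Hnf4a promoters 0.011 at 96 h. In nuclei of at least 3000 counts the marker-low ratio at 0 h was -3.15 for Foxa1, -0.59 for Cebpa and 0.19 for Cebpb. At 72 h that of Hnf4a was -0.30 (95% interval -0.71 to 0.07) in place of -0.61. The 72 h intervals of Foxa1, Foxa2, Onecut1 and Prox1 came to span 0 too, and no factor kept an interval wholly below 0. At 96 h the marker-low ratio of Foxa1 was 0.43 (-1.20 to 1.66) in place of -0.13.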
